A study of Mus musculus with 46 samples.

Results

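The genes described are 10 that mark lipid-associated macrophages, a macrophage state with the receptor TREM2 at its centre: Trem2, Tyrobp, Gpnmb, Spp1, Cd9, Fabp5, Lgals3, Apoe, Lpl and Cd63. They were taken by gene symbol from a table of 53465 genes, and each matched 1 row. They were followed mainly in macrophages sorted from mouse kidneys after sham surgery, unilateral ureteric obstruction (UUO) or reversal of the obstruction (rUUO), and then in the other sorted populations of the same experiment.

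TREM2 is a lipid-sensing receptor of macrophages and microglia that has no signalling domain of its own and signals through the adaptor DAP12, which Tyrobp encodes. Macrophages that take up lipid from dying cells, in fat, arteries, brain and other injured tissues, are known to raise Trem2 together with genes for lipid binding and transport (Fabp5, Apoe, Lpl), lysosomal and endosomal membrane proteins (Gpnmb, Cd63, Cd9) and secreted or galactose-binding proteins (Spp1, Lgals3). In the obstructed kidney, tubular cells die in numbers and macrophages clear the debris.

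Bulk RNA-sequencing gave the values, as FPKM (fragment counts scaled to transcript length and library size). The mice were wild-type male C57BL/6 of 8 to 12 weeks, and no group carried a transgene or an added allele. Macrophages were sorted by F4/80 from 4 sham, 4 UUO and 3 rUUO samples, proximal tubular (PT) cells by LTL from 3, 4 and 3, endothelial cells by CD31 from 4, 3 and 4, and stromal cells by PDGFRB from 4, 4 and 4. Mice with UUO were culled on day 2 or day 7 and mice with rUUO 14 days after reversal. The labels do not give the day of a UUO sample, so both days may be present in a group. The title of PT UUO replicate 2 names both sham and UUO, and it was placed in UUO by its treatment label. In a bulk sample, more cells in a given state and more RNA per cell cannot be told apart.

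The windows around the transcription start of Trem2, Gpnmb and Spp1 are shown because each of these genes rose against sham in macrophages, while being expressed in different sets of kidney cells. RefSeq (GRCm38.p6) windows were found for 7 of the 10 genes and searched from 250 bases before to 50 after the start, on both strands, for 4 motifs: GAGGAA (a core of sites bound by PU.1, a factor of the macrophage lineage, found in 28.3% of all 32851 windows), TGACTCA (the AP-1 site, 5.2%), CACGTG (an E-box bound by MiT/TFE factors, 7.15%) and TATAAA (the TATA box, 13.6%). The windows are printed 5′ to 3′ up to 30 bases after the start, with matches in capitals.
Trem2, chr17:48346151-48346430, plus strand: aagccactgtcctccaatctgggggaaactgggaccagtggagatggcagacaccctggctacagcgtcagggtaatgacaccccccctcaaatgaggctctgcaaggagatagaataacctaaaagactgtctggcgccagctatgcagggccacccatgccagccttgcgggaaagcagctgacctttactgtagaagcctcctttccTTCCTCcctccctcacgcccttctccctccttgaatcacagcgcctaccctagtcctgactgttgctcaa
Gpnmb, chr6:49036268-49036547, plus strand: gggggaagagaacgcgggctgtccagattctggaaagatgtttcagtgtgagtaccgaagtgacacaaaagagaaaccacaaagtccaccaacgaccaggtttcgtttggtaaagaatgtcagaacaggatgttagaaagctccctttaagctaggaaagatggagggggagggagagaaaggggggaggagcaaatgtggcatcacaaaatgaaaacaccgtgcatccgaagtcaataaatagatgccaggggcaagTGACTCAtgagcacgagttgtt
Spp1, chr5:104434861-104435140, plus strand: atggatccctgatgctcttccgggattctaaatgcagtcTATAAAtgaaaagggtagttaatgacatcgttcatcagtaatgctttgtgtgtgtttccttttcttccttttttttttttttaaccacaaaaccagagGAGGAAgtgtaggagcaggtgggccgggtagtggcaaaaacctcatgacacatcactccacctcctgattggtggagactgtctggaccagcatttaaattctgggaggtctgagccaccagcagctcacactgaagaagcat
Trem2 held 1 match, GAGGAA on the opposite strand at position -40. Gpnmb held 1 match, TGACTCA at position 9 after the start, and the first of 2 Spp1 windows held GAGGAA at position -113 and TATAAA at position -211. CACGTG was in none of the windows found, which cover 7 of the 10 genes. These are letter matches and not measured sites.

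The macrophage samples carried the markers of their label. The 10 macrophage markers summed to 12437.5 to 21573.2 FPKM in them and to at most 169.18 FPKM in any sample of another population. Adgre1, which encodes F4/80, had 151.8 to 247.4 FPKM over the 11 samples and at most 1.54 FPKM in the other populations. UUO replicate 2 stood apart. It had 176.3 FPKM of the complement gene C1qa against 1315 to 1888 FPKM in the other 10 samples, 37.8% of its FPKM in mitochondrial genes against 20.4% to 28.0%, and the lowest mean correlation with its group, 0.865. For the 10 genes, the calls, range counts, correlations and differences between populations that involve macrophage UUO samples are therefore also given without it. So are the counts called in UUO for the related gene lists below. Changes of single genes of those lists are from all samples unless stated. Markers of other cells moved with surgery in the macrophage samples as well. The summed level of 5 monocyte markers was 56.3 to 94.7 FPKM after sham, 233.6 to 281.3 FPKM after UUO and 131.3 to 152.0 FPKM after rUUO. That of 7 injured tubule markers was 35.2 to 55.6, 65.5 to 120.7 and 89.9 to 156.7 FPKM, and that of 9 PT markers was 105.9 to 144.8, 24.6 to 39.2 and 18.6 to 22.2 FPKM. Markers of the loop of Henle, distal tubule and collecting duct (7 genes) summed to 68.2 to 111.0, 15.2 to 46.2 and 37.9 to 72.5 FPKM, and 6 dendritic cell markers to 33.8 to 41.8, 17.4 to 34.8 and 23.3 to 30.1 FPKM. Endothelial markers (7 genes) summed to 21.9 to 35.8, 30.7 to 38.2 and 26.2 to 57.3 FPKM, and 4 B cell markers to 42.5 to 57.8, 28.6 to 97.2 and 29.2 to 42.9 FPKM. Neutrophil markers (6 genes) summed to 26.5 to 78.9, 50.4 to 235.5 and 100.1 to 129.7 FPKM, 7 stromal markers to 16.6 to 64.8, 54.5 to 114.9 and 48.1 to 94.6, and 6 T and NK cell markers to 0 to 0.72, 4.04 to 54.5 and 6.33 to 44.8. Most of the neutrophil sum was Csf3r alone, at 22.9 to 75.4, 39.2 to 142.1 and 93.6 to 108.7 FPKM. Most of the monocyte sum was Ccr2 alone, at 50.25 to 87.7, 198.7 to 241.3 and 118.0 to 141.6 FPKM. Little of the injured tubule sum was Havcr1, with means of 0.745, 6.32 and 0.41 FPKM, or Krt20, at 0.05 FPKM or less. The rest came from the other genes of that list. At 0 in every sample of a group were 2 neutrophil markers in sham and 1 in rUUO, 3 T and NK cell markers in sham, and the injured tubule marker Krt20 in rUUO. The part of these cells in the results below was not tested, except where a value is given.

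In macrophages, obstruction raised 4 of the 10 genes and lowered 1. Fabp5, Spp1, Gpnmb and Trem2 rose, with group means 12.1, 5.26, 9.38 and 4.0 times those of sham, and Lpl fell to 0.544 times the sham mean. The Gpnmb ratio rested on UUO replicate 1, without which it was 4.58. For Spp1, PT RNA in the UUO samples could amount to 27.2% to 81.4% of the level, as given below. After reversal the first 4 genes were still above sham and Cd63 was above sham as well, whereas no gene was called between rUUO and UUO. Tyrobp, the adaptor, was called in no comparison.

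Calls were made with limma on log2(FPKM + 1) at an adjusted p under 0.05 over all genes tested. For UUO against sham, 5 of 10 genes were called where 4.99% of all 13332 genes were, and the median change of the 10 was 0.49 (log2) against -0.03 over all genes. Without UUO replicate 2, 8 of 10 were called (5.52% of all genes), the additional ones being Lgals3, Apoe and Cd63, all higher. In that fit the changes of the genes already called were 2.06 for Trem2 (adjusted p = 0.000107), 3.29 for Fabp5 (7.48e-05), 2.30 for Spp1 (0.000375), 2.83 for Gpnmb (0.00518) and -0.77 for Lpl (0.0481). For rUUO against sham, 5 of 10 were called, all higher, where 3.44% of all genes were, and the median change was 1.25 against -0.03. For rUUO against UUO, none of the 10 was called and 0% of all genes were, while at an unadjusted p under 0.05 there were 3 of the 10 and 945 genes in all. With the replicate left out, that comparison called 15 genes and still none of the 10. UUO and rUUO share their sham samples, so the calls against sham are not independent of each other.

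**Figure D1:**
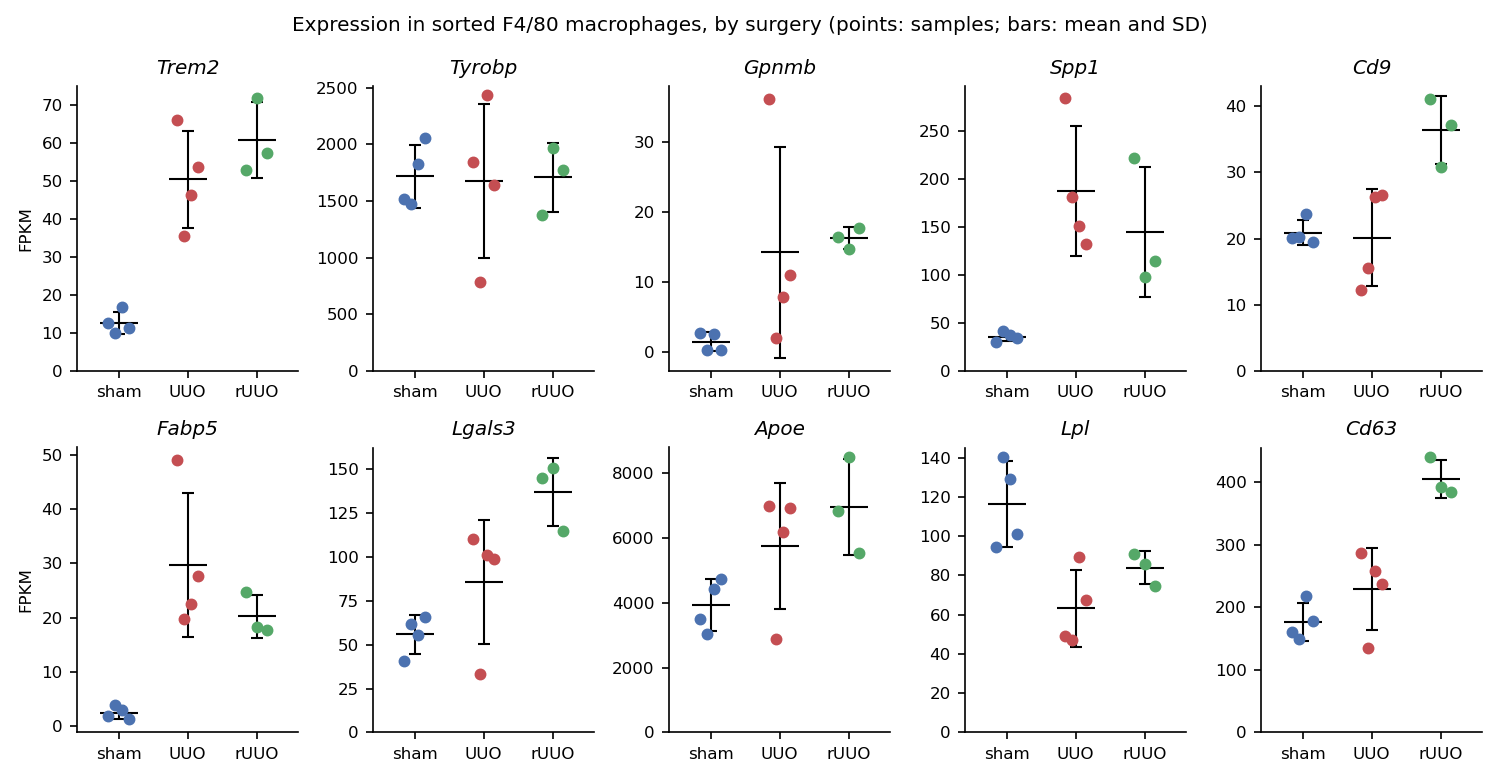
FPKM of the 10 genes in each macrophage sample after sham, UUO and rUUO, on linear axes; each point is a sample and the bars are the mean and SD (n = 4, 4 and 3). Trem2, Spp1 and Fabp5 in UUO and rUUO lay above every sham sample, Lpl lay below, and Cd9, Lgals3 and Cd63 were highest in the 3 rUUO samples.

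The ranges of UUO and sham did not overlap for 4 genes, of which 3 were higher in UUO (Trem2, Spp1 and Fabp5) and 1 lower (Lpl), where 11.7% of all genes had separate ranges. Leaving out UUO replicate 2, they did not overlap for 8 genes, 7 higher and 1 lower, against 18% of all genes. Between rUUO and sham they did not overlap for 9 genes, 8 higher and 1 lower, against 18% of all genes. Between rUUO and UUO they did not overlap for 3 genes (Cd9, Lgals3 and Cd63), all higher in rUUO, against 7.13% of all genes, and without that replicate for 3, against 12.8%. Tyrobp was the gene whose ranges overlapped in all of these comparisons.

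Trem2 (ENSMUSG00000023992.14, chr17:48346401-48354147 of GRCm38, plus strand) encodes the receptor. It had 12.5, 9.94, 16.8 and 11.2 FPKM in the 4 sham samples, 66.0, 35.6, 46.4 and 53.8 FPKM in UUO, and 53.0, 71.96 and 57.5 FPKM in rUUO. Every UUO and rUUO value lay above every sham value, and UUO and rUUO overlapped. The log2 change was 1.91 ± 0.23 (SE) in UUO (adjusted p = 0.000239) and 2.19 ± 0.24 in rUUO (adjusted p = 0.000167) against sham, and 0.29 ± 0.24 for rUUO against UUO (adjusted p = 0.861). Both calls against sham held under every alternative fit and without any single sample.

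Tyrobp (ENSMUSG00000030579.10, chr7:30413760-30417585, plus strand), which encodes the adaptor DAP12, was far more abundant. It had 1518, 1469, 1822 and 2053 FPKM in sham, 1841, 782.2, 2432 and 1645 FPKM in UUO, and 1379, 1970 and 1772 FPKM in rUUO. The means of 1716 ± 273.8, 1675 ± 682.7 and 1707 ± 300.8 FPKM (SD, n = 4, 4 and 3) differed by less than the spread of each group, and the wide spread in UUO came with the low value of replicate 2. The log2 change of Tyrobp was -0.13 ± 0.28 in UUO (adjusted p = 0.844) and -0.01 ± 0.30 in rUUO (adjusted p = 0.995) against sham.

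Among the genes of lipid handling, Fabp5 (ENSMUSG00000027533.10, chr3:10012548-10016607, plus strand), a cytosolic carrier of fatty acids, changed most. It had 1.87, 3.87, 2.93 and 1.19 FPKM in sham, 49.0, 19.7, 22.5 and 27.7 FPKM in UUO, and 24.8, 18.2 and 17.7 FPKM in rUUO, so that its lowest value after surgery was above the highest sham value. The log2 change was 3.13 ± 0.32 in UUO (adjusted p = 9.52e-05) and 2.67 ± 0.35 in rUUO (adjusted p = 0.000503) against sham, and -0.46 ± 0.35 for rUUO against UUO (adjusted p = 0.835). Both calls held under every alternative.

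Apoe (ENSMUSG00000002985.16, chr7:19696109-19699188, minus strand), the apolipoprotein that carries cholesterol out of macrophages, was the most abundant of the 10 genes in macrophages. It had 3496, 3049, 4432 and 4739 FPKM in sham, 7001, 2884, 6194 and 6931 FPKM in UUO, and 6818, 8511 and 5550 FPKM in rUUO. In UUO, replicate 2 lay under every sham sample and the other 3 lay above them all. The log2 change against sham was 0.49 ± 0.28 in UUO (adjusted p = 0.355) and, without replicate 2, 0.79 ± 0.18 (adjusted p = 0.0201). In rUUO it was 0.83 ± 0.30 (adjusted p = 0.168), with all 3 samples above all sham samples.

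Lpl (ENSMUSG00000015568.16, chr8:68880491-68907448, plus strand), the secreted lipase that frees fatty acids from lipoproteins, went the other way. It had 94.6, 140.3, 128.8 and 101.2 FPKM in sham, 49.2, 46.9, 89.2 and 67.5 FPKM in UUO, and 91.0, 85.8 and 74.8 FPKM in rUUO. All UUO and rUUO samples lay below all sham samples, the nearest of them by a few FPKM. Lpl fell by 0.90 ± 0.22 on the log2 scale in UUO (adjusted p = 0.0293), a call lost in 7 of 17 alternatives, among them those without sham replicate 2 (adjusted p = 0.1), sham replicate 3 (0.0814) or UUO replicate 1 (0.0862). In rUUO the change was -0.45 ± 0.23 (adjusted p = 0.368).

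Gpnmb (ENSMUSG00000029816.10, chr6:49036546-49070929, plus strand), a glycoprotein of lysosomal membranes, was low in sham. It had 2.83, 0.34, 2.58 and 0.34 FPKM in sham, 36.2, 2.01, 7.89 and 11.03 FPKM in UUO, and 16.5, 14.8 and 17.8 FPKM in rUUO. UUO spread widely and its lowest sample, replicate 2, overlapped sham, whereas the rUUO samples lay close together and above sham. The log2 change against sham was 2.23 ± 0.61 in UUO (adjusted p = 0.0492) and 2.96 ± 0.65 in rUUO (adjusted p = 0.0234). Without UUO replicate 2 the change in UUO was 2.83 ± 0.50. Leaving out any other single sample of the comparison ended the UUO call, with adjusted p from 0.0643 to 0.144, and the rUUO call was lost without sham replicate 2 or 4 or any of the rUUO samples (0.063 to 0.0928).

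Spp1 (ENSMUSG00000029304.14, chr5:104435118-104441050, plus strand) encodes osteopontin, a secreted phosphoprotein that injured tubules also make in quantity. Macrophages had 30.2, 41.3, 37.0 and 34.0 FPKM in sham, 284.4, 181.3, 151.4 and 132.7 FPKM in UUO, and 222.1, 97.7 and 114.6 FPKM in rUUO. No value after surgery came down to the sham range. Spp1 rose by 2.31 ± 0.27 (log2) in UUO (adjusted p = 0.000217) and by 1.91 ± 0.29 in rUUO (adjusted p = 0.00195) against sham, and both calls held under every alternative.

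PT cells held more Spp1 than macrophages, so the amount of PT RNA in the macrophage samples was measured. The 9 PT markers summed in macrophages to 3.59% to 4.91% of their level in PT cells after sham, 2.47% to 3.94% after UUO and 1.11% to 1.32% after rUUO. At these shares the Spp1 level of PT cells amounts to 6.24 to 8.53 FPKM after sham, 77.3 to 123.2 FPKM after UUO and 7.73 to 9.2 FPKM after rUUO. That is 16.9% to 28.2%, 27.2% to 81.4% and 4.14% to 9.39% of the Spp1 found in the macrophage samples. For Cd63 the same calculation gave at most 14.8%, and for the other 8 genes at most 7.97%. It covers PT cells as sorted here and no other tubular segment. None of the alternative fits took this PT part away from the Spp1 values.

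Lgals3 (ENSMUSG00000050335.17, chr14:47367751-47386160, plus strand) encodes galectin-3, a galactose-binding lectin that macrophages secrete. It had 40.7, 61.6, 55.4 and 65.9 FPKM in sham, 110.0, 33.3, 100.8 and 98.8 FPKM in UUO, and 145.1, 150.6 and 114.6 FPKM in rUUO. In UUO, 3 samples were above every sham sample and replicate 2 was below them, and the rUUO samples were above both other groups. The log2 change against sham was 0.49 ± 0.32 in UUO (adjusted p = 0.422) and 1.29 ± 0.34 in rUUO (adjusted p = 0.0549, and 0.0498 with TPM and 0.0333 with mitochondrial genes left out of the scale). Without UUO replicate 2 the change in UUO was 0.89 ± 0.18 (adjusted p = 0.0124).

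Of the 2 tetraspanins, which organise membrane proteins on the cell surface and in endosomes, Cd63 (ENSMUSG00000025351.14, chr10:128900989-128912822, plus strand) had 160.9, 149.5, 218.1 and 178.0 FPKM in sham, 286.1, 135.5, 257.7 and 237.4 FPKM in UUO, and 439.7, 391.2 and 384.4 FPKM in rUUO. UUO overlapped sham through replicate 2 alone, and rUUO lay above all other samples. The log2 change against sham was 0.34 ± 0.22 in UUO (adjusted p = 0.426; 0.57 ± 0.15 and 0.0454 without replicate 2), and Cd63 rose by 1.21 ± 0.23 in rUUO (adjusted p = 0.0105; 0.0606 without rUUO replicate 1). For rUUO against UUO the change was 0.87 ± 0.23, with an unadjusted p of 0.00221 and an adjusted p of 0.343.

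Cd9 (ENSMUSG00000030342.8, chr6:125460266-125494791, minus strand), the other tetraspanin and a surface marker often used to sort these macrophages, had 20.1, 20.3, 23.7 and 19.5 FPKM in sham, 12.2, 15.6, 26.2 and 26.5 FPKM in UUO, and 41.1, 30.9 and 37.2 FPKM in rUUO. The UUO samples lay on both sides of the sham range and the rUUO samples above all others. The log2 change against sham was -0.12 ± 0.25 in UUO (adjusted p = 0.844) and 0.77 ± 0.27 in rUUO (adjusted p = 0.151), and that of rUUO against UUO was 0.88 ± 0.27, with an unadjusted p of 0.00511 and an adjusted p of 0.439.

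**Figure D2:**
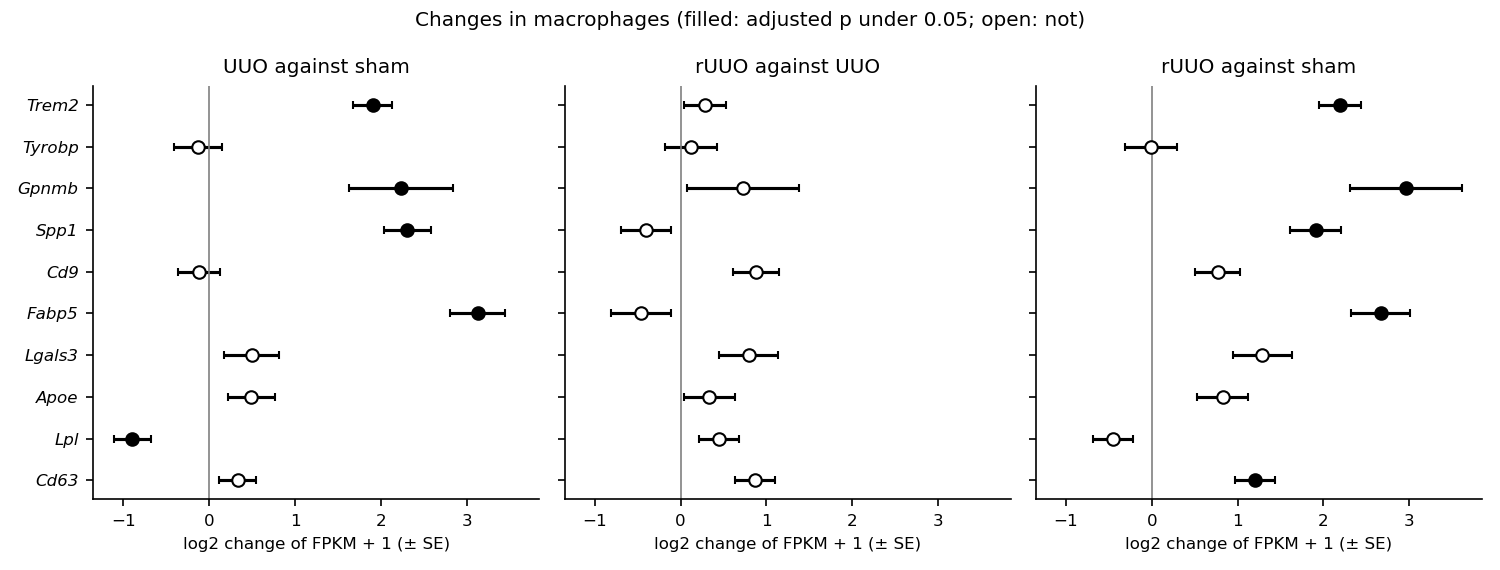
Log2 change of FPKM + 1 in macrophages (points, with SE bars) for UUO against sham, rUUO against UUO and rUUO against sham; filled points passed an adjusted p under 0.05. Filled points stand for 5 genes in the first panel (Trem2, Gpnmb, Spp1, Fabp5 and Lpl), none in the middle one and 5 in the last (Cd63 in place of Lpl).

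Over the 11 macrophage samples, which share a sort and fall into 3 surgery groups, the 10 genes did not follow a single course. The Pearson correlation of Trem2 with Fabp5 was 0.93, with Gpnmb 0.91 and with Spp1 0.87, and Fabp5 and Spp1 reached 0.96 with each other. Lgals3, Apoe and Cd63 formed a second close set, with correlations from 0.86 to 0.92, and correlated with Trem2 at 0.71 to 0.76. Cd9 (0.32), Tyrobp (0.07) and Lpl (-0.65) were far from Trem2. After each sample was set against its own group mean, Trem2 and Gpnmb still had a correlation of 0.83 and Lgals3 and Apoe 0.88, while that of Trem2 and Fabp5 was 0.43, that of Trem2 and Spp1 -0.03, and that of Trem2 and Tyrobp 0.58. Without UUO replicate 2 (10 samples), Trem2 had correlations of 0.95 with Gpnmb, 0.94 with Fabp5, 0.92 with Apoe, 0.90 with Lgals3, 0.89 with Spp1 and 0.87 with Cd63, so that Lgals3, Apoe and Cd63 no longer stood apart from the first set. Within groups, the values without it were 0.72 for Trem2 and Gpnmb, 0.50 for Lgals3 and Apoe, 0.25 for Trem2 and Fabp5 and 0.16 for Trem2 and Tyrobp.

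The genes most like Trem2 over those samples, by Pearson correlation among 13330 genes, were Ctsd (0.99), Ccl8 (0.98), Nr4a1 (0.98), Tubb5 (0.97) and Fcrls (0.97). Ctsd, the lysosomal protease cathepsin D, had means of 125.3, 471.0 and 564.1 FPKM in sham, UUO and rUUO, and Ccl8, a monocyte-attracting chemokine, 22.6, 193.4 and 276.2 FPKM. Among the other 9 genes described here, Fabp5 stood at rank 36 in that order, Gpnmb at 80 and Spp1 at 137. The genes most like Gpnmb were Dclk1 (0.96), Ccna2 (0.95), Card19 (0.94), Phyhd1 (0.93) and Cstb (0.93), with Trem2 at rank 14. Ccna2, the cyclin A2 of dividing cells, had means of 2.65, 5.88 and 8.92 FPKM, and Cstb, an inhibitor of cathepsins, 75.7, 167.5 and 193.5 FPKM. With UUO replicate 2 left out, Ctsd, Ccl8 and Nr4a1 stayed the first 3 for Trem2, with Tubb5 at rank 7 and Fcrls at 8, while of the genes named for Gpnmb only Dclk1 (rank 3) and Ccna2 (rank 4) were among its first 5.

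Genes around TREM2 in the pathway were read from lists. None of the 9 genes of TREM2 signalling and shedding was called in macrophages, whether UUO or rUUO was compared with sham: the kinase Syk had means of 33.2, 34.5 and 34.1 FPKM in sham, UUO and rUUO, and the sheddase Adam17 46.8, 58.2 and 68.5 FPKM (log2 change in UUO 0.30 ± 0.16, adjusted p = 0.303). Adam17 had 44.7 to 49.7 FPKM after sham, 51.4 to 69.7 FPKM after UUO and 65.9 to 71.1 FPKM after rUUO, so neither surgery group overlapped sham. With 4.99% of all genes called in UUO and 3.44% in rUUO, none of 9 is near the background. The median change of the list in UUO was -0.04 (log2), and that of all genes -0.03.

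Of 17 genes of lipid uptake, storage and efflux, 5 rose and 1 fell in UUO, where 4.99% of all genes were called, with a median change of 0.45 against -0.03 over all genes. Once UUO replicate 2 was left out, 5 rose and 1 fell of the 16 then tested, where 5.52% of all genes were called. Abca1, which pumps cholesterol out of the cell, rose by 1.46 ± 0.24 (adjusted p = 0.0034), Pltp, a phospholipid transfer protein, by 1.37 ± 0.16 (0.000241), and Msr1, a scavenger receptor, by 1.25 ± 0.19 (0.00203). Cd36, a scavenger receptor and fatty acid importer, fell by 1.82 ± 0.19 (adjusted p = 9.52e-05), from a mean of 194.5 to 54.1 FPKM. In rUUO 4 of the 17 were higher than sham and 1, Cd36, was lower, at 85.8 FPKM, where 3.44% of all genes were called.

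Of 18 measured genes of the signatures of disease-associated microglia and lipid-associated macrophages other than the 10, 5 rose and 2 fell in UUO, against 4.99% of all genes called, with a median change of 0.41. Ctsd rose by 1.88 ± 0.19 (adjusted p = 9.47e-05), Ctsl, another lysosomal protease, by 1.66 ± 0.22 (0.00058), and Vim, an intermediate filament, by 1.47 ± 0.17 (0.000164). Mmp12, the macrophage elastase, fell by 2.55 ± 0.32 (adjusted p = 0.000355), from a mean of 211.0 to 38.1 FPKM, and stood at 168.0 FPKM in rUUO. It was the 1 gene of the list called for rUUO against UUO once UUO replicate 2 was left out (adjusted p = 0.0348). In rUUO 4 of the 18 were higher than sham and none was lower (3.44% of all genes). Without that replicate 7 rose and 2 fell in UUO (5.52% of all genes).

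Of 9 homeostatic genes that are lowered in disease-associated microglia, 2 fell in UUO and 1 rose, against 4.99% of all genes called, with a median change of 0.17. Tgfbr1, a receptor for TGF-beta, fell by 1.59 ± 0.18 (adjusted p = 0.000142), Selplg, a selectin ligand, fell by 0.80 ± 0.20 (0.0309), and Mertk, a receptor for dying cells, rose by 1.34 ± 0.21 (0.00278). The fractalkine receptor Cx3cr1 had means of 242.0, 216.1 and 221.4 FPKM in sham, UUO and rUUO and was not called. Of the 9 genes of MiT/TFE transcription factors and lysosomal biogenesis, 3 rose in UUO (4.99% of all genes), with a median change of 0.21: Tfec, a MiT/TFE factor of myeloid cells (1.90 ± 0.35, adjusted p = 0.00731), Gla, the lysosomal alpha-galactosidase (1.58 ± 0.31, 0.0101), and Lamp1, a lysosomal membrane protein (0.72 ± 0.15, 0.0145). The 3 were also called in rUUO (3.44% of all genes). Mitf, Tfeb and Tfe3 were not called in UUO.

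Of 8 tetraspanins other than Cd9 and Cd63, none rose and 2 fell in UUO, against 4.99% of all genes called: Cd37 by 1.20 ± 0.26 (adjusted p = 0.0198) and Cd81 by 1.13 ± 0.16 (0.00119). Cd81 also fell by 0.86 in rUUO (adjusted p = 0.014), where Cd63 rose. Without UUO replicate 2, the counts called in UUO were unchanged for the tetraspanin, homeostatic, MiT/TFE and TREM2 signalling lists. In that fit 5.52% of all genes were called.

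**Figure D3:**
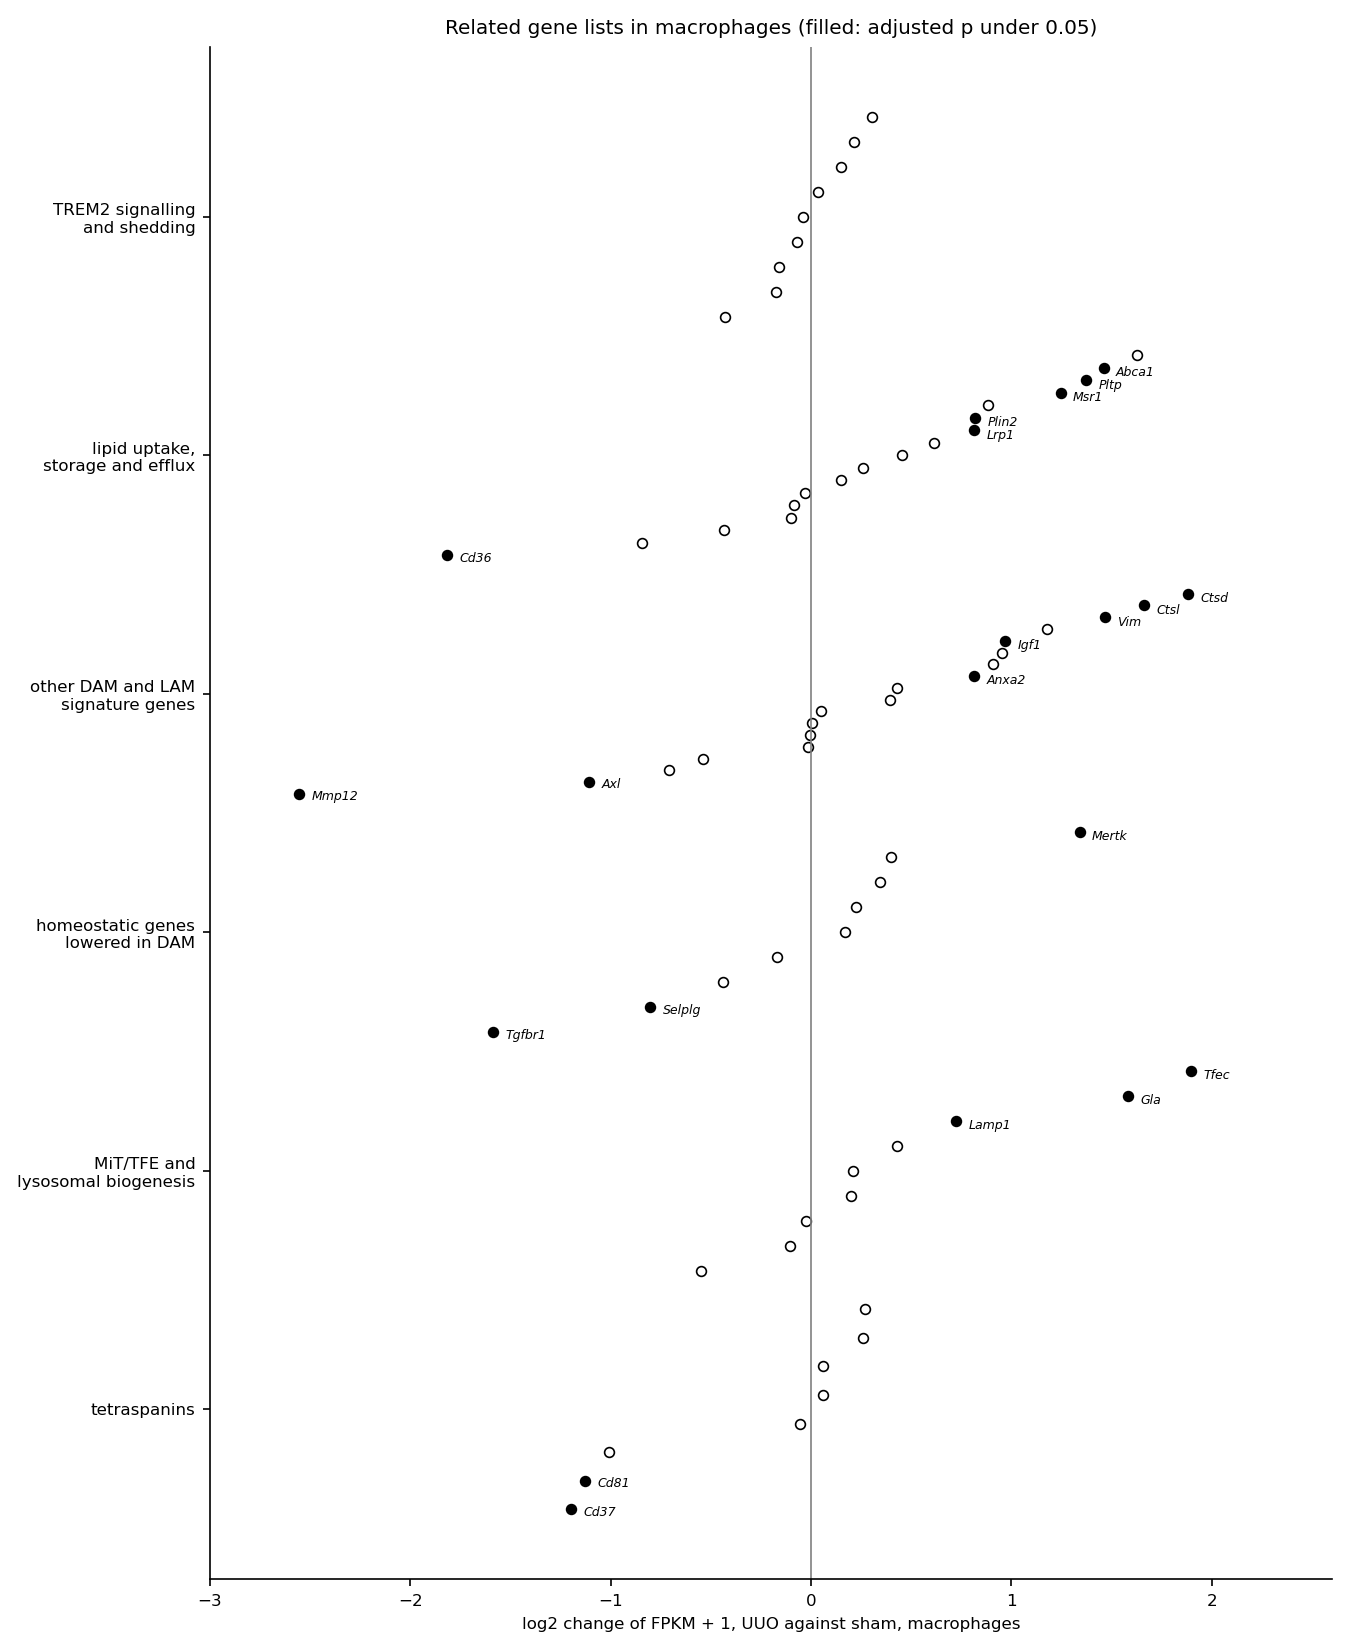
Log2 change of FPKM + 1 in macrophages, UUO against sham, for every measured gene of 6 related lists, 1 point per gene; filled and named points passed an adjusted p under 0.05, and DAM and LAM stand for disease-associated microglia and lipid-associated macrophages. No point of the TREM2 signalling list is filled, and the lipid and signature lists have filled points on both sides of 0.

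Sham kidneys show where the 10 genes were expressed before injury. Trem2 was confined to macrophages among the sorted populations: it had 12.6 ± 2.98 FPKM there (SD, n = 4) and at most 0.41 FPKM in any other sham sample. Its highest value in the 33 samples of the other populations was 1.31 FPKM, and for Tyrobp it was 20.9 FPKM, against at least 782.2 FPKM in macrophages. The 10 macrophage markers summed in these 3 populations to at most 0.96% of their level in macrophages.

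Against PT cells, 9 of the 10 genes were called in sham where 61.7% of all 14332 genes were; 7 were higher in macrophages, and Spp1 and Cd63 were lower. Against endothelial cells 9 were called (43.4% of all genes), with Cd9, Fabp5 and Spp1 lower in macrophages. Against stromal cells 8 were called (46.2%), with Gpnmb, Spp1 and Cd63 lower in macrophages. Between cell types a large share of all genes was called, and the median of all genes was itself 0.84 (log2) higher in macrophages than in PT cells, whose mitochondrial genes took 58.7% to 75.6% of FPKM. Fabp5, at 2.46 ± 1.18 FPKM in sham macrophages and 0.80 ± 0.78 in PT cells, lost its call when mitochondrial genes were left out of the scale (adjusted p = 0.46), and lost it in 7 of 15 alternatives in all. The Spp1 call against endothelial cells was lost in 6 of 16 alternatives, and the Cd63 call against stromal cells in 9 of 16.

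Several of these genes were higher in another population than in macrophages. At baseline, Cd63 had means of 484.8, 248.8, 176.6 and 67.0 FPKM in PT, stromal, macrophage and endothelial cells, Cd9 84.6 FPKM in endothelial cells and 20.9 in macrophages, and Fabp5 25.9 FPKM in endothelial cells. Gpnmb had 11.96 ± 10.6 FPKM (SD, n = 4) in stromal cells and 1.52 ± 1.37 in macrophages. Spp1 had 173.8 FPKM in PT cells and 162.4 in stromal cells, against 35.6 in macrophages. Markers of the loop of Henle, distal tubule and collecting duct were present in these sham samples as well. They summed to 446 to 601 FPKM in stromal, 189 to 916 in endothelial and 78.5 to 90.8 in PT cells. After UUO the stromal sum was 35.9 to 64.5 FPKM. The part of these segments in the sham levels was not tested.

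In PT cells, obstruction raised Spp1, Lgals3 and Cd9. The 7 markers of the loop of Henle, distal tubule and collecting duct were also higher in these samples. They summed to 78.5 to 90.8 FPKM after sham, 173.0 to 280.7 after UUO and 98.6 to 191.7 after rUUO. Umod, among them, had means of 17.4, 147.4 and 72.9 FPKM. The part of these segments in the changes described for PT cells was not tested. Spp1 had 179.4, 194.8 and 147.2 FPKM in the 3 sham samples and 2967, 3697, 2766 and 3065 FPKM in UUO, a rise of 4.16 ± 0.17 (log2; adjusted p = 1.56e-09). Lgals3 went from 0.873 to 33.2 FPKM in the mean (4.14 ± 0.30, adjusted p = 2.34e-07) and Cd9 from 4.27 to 39.3 FPKM (2.97 ± 0.27, adjusted p = 1.92e-06), with no overlap. In all, 4 of the 8 genes above the filter were called where 32.8% of all genes were, Lpl being the one that fell, by 1.12 ± 0.39 (adjusted p = 0.0386; lost in 6 of 16 alternatives). The median of all genes was 0.51 in this comparison.

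After reversal, Spp1 in PT cells came down to 557.6, 754.6 and 773.8 FPKM, below every UUO and above every sham sample (rUUO against UUO -2.17 ± 0.17, adjusted p = 4.54e-05), and Lgals3 to a mean of 11.9 FPKM (-1.34 ± 0.30, adjusted p = 0.028; lost in 11 of 16 alternatives, including without any one of 6 samples). These 2 of 8 genes were called where 3.83% of all genes were, at a median of -0.27.

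In stromal cells, 6 of the 9 genes above the filter rose in UUO, where 26.4% of all genes were called in either direction. Spp1 rose by 2.46 ± 0.18 (log2; adjusted p = 1.83e-07), Fabp5 by 1.85 ± 0.36 (0.00136), Gpnmb by 1.53 ± 0.48 (0.0277), Lpl by 1.45 ± 0.30 (0.00206), Cd63 by 1.18 ± 0.17 (8.34e-05) and Cd9 by 1.02 ± 0.19 (0.00093). Lpl, which fell in macrophages, had 37.5, 56.1, 67.1 and 28.0 FPKM in sham stromal cells and 94.7, 99.2, 107.1 and 235.7 in UUO. The Gpnmb call was lost when any one of 5 samples was left out (adjusted p from 0.0601 to 0.0939).

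After reversal, Gpnmb, Spp1, Cd9, Lpl and Cd63 were still above sham in stromal cells and Fabp5 was not called. Fabp5 had 2.65, 2.04, 0.81 and 2.02 FPKM in sham, 9.98, 5.29, 8.34 and 14.9 in UUO and 2.15, 6.14, 3.12 and 3.09 in rUUO (rUUO against UUO -1.19 ± 0.36, adjusted p = 0.0815, rUUO against sham adjusted p = 0.253). Gpnmb had 4.31, 9.12, 27.6 and 6.83 FPKM in sham, 15.7, 36.8, 19.1 and 64.8 in UUO and 59.2, 110.8, 56.6 and 58.3 in rUUO, a change of 2.73 ± 0.48 for rUUO against sham (adjusted p = 0.000857). The rUUO samples were all above sham, and 3 of them lay within the UUO range. Spp1 rose further, from a mean of 909.1 FPKM in UUO to 1603 in rUUO (0.82 ± 0.18, adjusted p = 0.0231; lost in 8 of 17 alternatives, including without UUO replicate 2 or rUUO replicate 1, 4 or 6). Apoe rose from 194.2 to 480.6 FPKM (1.34 ± 0.24, adjusted p = 0.00647), held under every alternative. These were the 2 of 9 genes called for rUUO against UUO, where 4.17% of all genes were. Against sham, a comparison added after the values were seen, 6 of 9 were higher in rUUO (17.2% of all genes called), among them Apoe (1.58 ± 0.24, adjusted p = 0.000195) and Spp1 (3.27 ± 0.18, adjusted p = 6.2e-08).

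In endothelial cells, 3 of the 8 genes above the filter were called in UUO where 1.98% of all genes were. Spp1 had 34.6, 66.2, 94.8 and 57.3 FPKM in sham and 194.2, 223.0 and 439.4 in UUO (2.15 ± 0.35, adjusted p = 0.00362), Apoe rose by 0.80 ± 0.18 (0.0289) and Lpl fell by 1.52 ± 0.33 (0.0277). The groups did not overlap for any of the 3. The Spp1 call was lost without a filter on low values (adjusted p = 0.0595). PT markers summed in the endothelial samples to 51.8 to 168.0 FPKM after sham and 23.6 to 54.9 after UUO. Injured tubule markers summed to 86.7 to 137.2 and 266.1 to 491.3 FPKM. The same markers summed to less, 9.75 to 16.25 FPKM, in sham PT cells. Little of the endothelial sum was Havcr1, with means of 0.695 FPKM after sham and 9.92 after UUO. The part of tubular RNA in the endothelial Spp1 change was not tested. Macrophage markers in the endothelial samples summed to 0.69% to 0.90% of their macrophage level after sham and 0.52% to 0.96% after UUO. Apoe had means of 3929 and 5753 FPKM in sham and UUO macrophages. The part of macrophage RNA in the endothelial Apoe change was not tested. The Apoe and Lpl calls were lost in 9 and 8 of 16 alternatives, among them without sham replicate 2 or 3 or UUO replicate 1 or 4. None of the 8 was called for rUUO against UUO, where 0.0597% of all genes (8) were, while at an unadjusted p under 0.05 there was 1 of the 8, Fabp5 (adjusted p = 0.234), and 1369 of all genes.

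**Figure D4:**
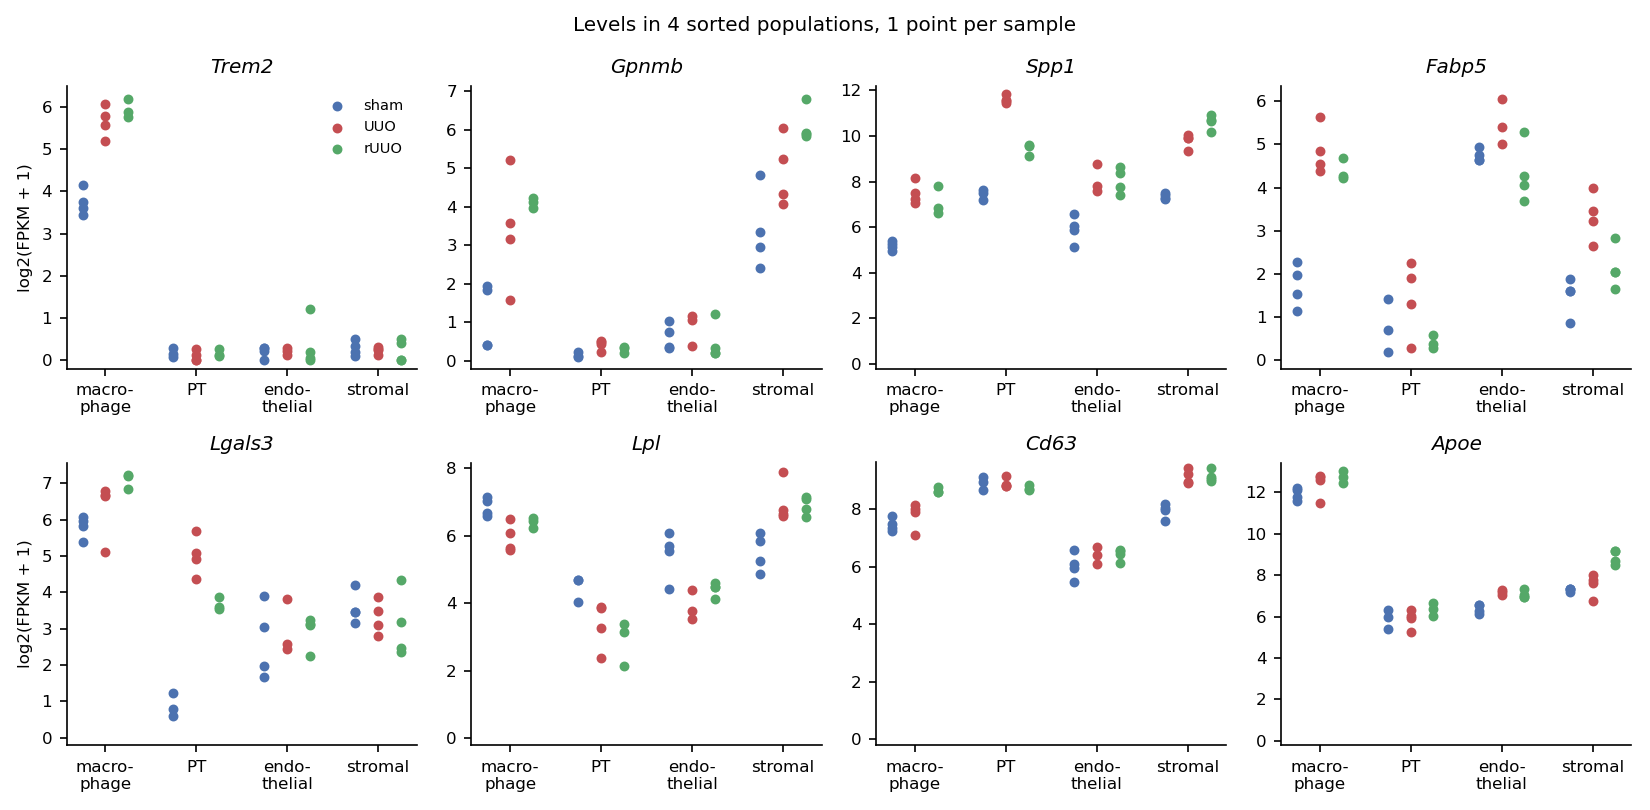
Log2(FPKM + 1) of 8 of the genes in macrophage, PT, endothelial and stromal samples after sham (blue), UUO (red) and rUUO (green), 1 point per sample. Trem2 is at or near 0 outside macrophages, Spp1 in UUO is highest in PT cells (up to 3697 FPKM), and Gpnmb is highest in stromal rUUO (up to 110.8 FPKM).

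Whether the response to obstruction differed between macrophages and another population was tested as the difference of the log2 changes. For Trem2 that test could not compare responses. Trem2 averaged under 1 FPKM in every other population and was left out of their own fits. It passed the filter here through macrophages. Its differences therefore restate the macrophage rise. They were 1.98 ± 0.33 from PT cells (adjusted p = 3.24e-05), 1.89 ± 0.33 from endothelial cells (0.000361) and 1.95 ± 0.32 from stromal cells (1.78e-05). With a pseudocount of 0.1, which stretches the values near 0 outside macrophages, none of these passed (adjusted p = 0.0504, 0.364 and 0.102). The Fabp5 change was larger in macrophages than in PT cells by 2.46 ± 0.54 (0.00122) and than in endothelial cells by 2.38 ± 0.54 (0.00927), and its difference from stromal cells, 1.28 ± 0.52, did not pass (0.0903). With the pseudocount of 0.1, the Fabp5 difference from endothelial cells did not pass either (0.0695). In PT cells Fabp5 was low, with means of 0.80 FPKM in sham and 2.025 in UUO.

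Other genes changed less in macrophages than elsewhere. Against PT cells the difference was -3.65 ± 0.61 for Lgals3 (adjusted p = 2.93e-05), -3.09 ± 0.31 for Cd9 (2.06e-09) and -1.85 ± 0.40 for Spp1 (0.00108; 0.103 with quantile normalization). Against stromal cells it was -2.35 ± 0.47 for Lpl (0.000333), where the genes moved in opposite directions, -1.14 ± 0.30 for Cd9 (0.00649) and -0.85 ± 0.28 for Cd63 (0.0306; lost in 9 of 24 alternatives, among them without macrophage UUO replicate 2, at 0.102). In all, 5 of the 10 genes differed from PT cells (15.5% of all genes), 2 from endothelial cells (2.31%) and 4 from stromal cells (16.2%). Each of these counts includes Trem2, which was under the filter outside macrophages. The difference from PT cells was one-sided over all genes, at a median of -0.45, with 253 called higher and 1963 lower. With quantile normalization that median was 0.04, with 694 called higher and 918 lower. Without macrophage UUO replicate 2, Gpnmb also differed from PT cells (2.57 ± 0.66, adjusted p = 0.006) and from endothelial cells (2.57 ± 0.66, 0.0245), and of the calls above the Cd63 one was lost. Gpnmb was under the filter in the own fits of PT and endothelial cells, so its differences mostly restate the macrophage rise.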

How the data were processed

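Expression was measured by RNA-sequencing of sorted mouse kidney cells. The authors deposited FPKM per gene; per the labels, the submitters' notes name FastQC, Bowtie2, RSEM, DESeq2 and the build mm10, without versions. Of 46 value columns 44 were used; the other 2 are both named CD31+ UUO 3, so their names do not say which sample each is, and the labelled samples CD31+ UUO 3 and LTL+ Sham 3 were left out. Genes whose FPKM averaged 1 or more in the samples fitted were tested on log2(FPKM + 1) with limma 3.58.1 (R 4.3.3) with an intensity trend and Benjamini-Hochberg adjustment, within a population across its 3 surgeries, or across all 44 samples for comparisons between populations. Changes are on the log2(FPKM + 1) scale, which understates those of low genes. The 10 genes and the lists were chosen with earlier results of these data known. Read totals are not given; the step between low values of 1979 short single-exon genes put the depth of the macrophage samples at 0.74 to 1.1 times the median of all samples (sham 0.74 to 1.1, UUO 0.792 to 0.935, rUUO 0.984 to 1.05). On simulated macrophage values for UUO against sham (13332 genes), 19 of 100 genes given a log2 change of 1 were recovered and 78 of 100 given a log2 change of 2, with 4 false calls. Named genes were the 10, the 5 most like Trem2 and the 5 most like Gpnmb, and from each list up to 4 called with the largest change in UUO; Syk, Adam17, Cx3cr1, Mitf, Tfeb and Tfe3 were added after their values were seen. A symbol with more than 1 row (Lilrb4a) was read at the row with the higher mean. Nothing states that samples with the same replicate number in different surgeries share a mouse or batch, and where samples of a group are not stated to be separate mice, p-values measure the spread between samples only. Versions of other tools: Python 3.11.15, pandas 2.3.3, matplotlib 3.10.9.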

Additional observations from a re-analysis of the deposited data

Results flagged for a closer look

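Within groups of 4 samples, 9 of 80 gene and group combinations had 1 sample far from the others on the log2 scale, where chance gives about 1 in 20. In macrophages both were UUO replicate 2: Lgals3 had 33.32 FPKM there against 98.8 to 110.0 in the other 3, and Apoe 2884.15 FPKM against 6194 to 7001. In stromal cells, rUUO replicate 2 had 110.82 FPKM of Gpnmb against 56.6 to 59.2 and 12.5 FPKM of Tyrobp against 8.02 to 8.44, and UUO replicate 4 had 235.67 FPKM of Lpl against 94.7 to 107.1. In endothelial cells after rUUO, replicate 4 had 1.31 FPKM of Trem2 against at most 0.15, replicate 2 had 1.31 FPKM of Gpnmb against at most 0.25, and replicate 1 had 3.74 FPKM of Lgals3 against 7.59 to 8.39. In PT cells, UUO replicate 3 had 565.69 FPKM of Cd63 against 445.7 to 456.1.

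The change from sham to UUO differed between macrophages and another population for 11 combinations of gene and population, by limma's test of the difference. Those of Trem2 restate its macrophage change, as Trem2 was under the filter in the other populations. Macrophages minus PT cells gave 1.98 for Trem2, 2.46 for Fabp5, -1.85 for Spp1, -3.09 for Cd9 and -3.65 for Lgals3. Macrophages minus endothelial cells gave 1.89 for Trem2 and 2.38 for Fabp5. Macrophages minus stromal cells gave 1.95 for Trem2, -1.14 for Cd9, -2.35 for Lpl and -0.85 for Cd63.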

How the results depend on the processing

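Of 70 changes of the 10 genes that passed, over all comparisons, 50 passed under every alternative run, 20 were lost under at least 1, and none changed direction. Changes that did not pass were recomputed in macrophages across surgeries alone, and there the direction changed for Tyrobp and Cd9. Tyrobp for rUUO against sham became 0.017 with TPM and 0.24 with quantile normalization, and for rUUO against UUO -0.022 with a replicate block. Leaving out single samples gave Tyrobp -0.35 to 0.19 (UUO against sham), -0.20 to 0.34 (rUUO against UUO) and -0.12 to 0.14 (rUUO against sham), and Cd9 -0.27 to 0.085 (UUO against sham).

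The number of the 10 genes called in macrophages for UUO against sham went from 5 to 3 with no filter on low values or no intensity trend, and from 3 to 8 when single samples were left out (3 without sham replicate 2 or 3 or UUO replicate 1; 8 without UUO replicate 2). For rUUO against sham it went from 5 to 3 with the replicate number as a block, and was 3 to 5 with single samples left out (3 without rUUO replicate 1). In PT cells, rUUO against UUO, it went from 2 to 1 with a pseudocount of 0.1, a rescaling without mitochondrial genes, no filter, a fit on all 4 populations or the replicate block, and was 1 to 2 with single samples left out. In endothelial cells, UUO against sham, it went from 3 to 1 with no filter, no intensity trend or the replicate block, and was 1 to 3 with samples left out. In stromal cells, rUUO against UUO, it went from 2 to 1 with no filter, no intensity trend or the replicate block, and was 1 to 2 with samples left out. The count of genes whose change differed between macrophages and endothelial cells went from 2 to 0 with a pseudocount of 0.1. The cause of these changes was not tested. Macrophages without UUO replicate 2, an alternative chosen after seeing the data, gave 1 called gene in place of 0 in the signature list for rUUO against UUO.

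Replicate numbers did not pair macrophage samples across surgeries: none of 8 same-numbered pairs had a correlation of deviations over 0.1 (-0.04 to 0.07). Samples of the same surgery and number had a consensus correlation of 0.03 across populations. Beyond the counts above, the replicate block ended the Lpl call in UUO macrophages (adjusted p = 0.0568) and took all genes called there from 665 to 346, and for rUUO against sham it ended the Gpnmb and Cd63 calls (adjusted p = 0.139 and 0.0726) and took 459 to 115. All genes called in macrophages for UUO against sham numbered 364 with no filter, 443 with no intensity trend and 1018 with the fit on all 4 populations, those for rUUO against sham 303 with no filter and 753 with that fit, and those for rUUO against UUO at most 35. With mitochondrial genes left out of the scale, the median of all genes moved by -0.21 in PT cells (UUO against sham, 3186 higher and 561 lower became 2014 and 857), by -0.79 between sham macrophages and PT cells (7131 and 1708 became 3777 and 3412) and by -0.19 in stromal cells (rUUO against sham, 1626 and 781 became 1036 and 1043), and by less than 0.1 in macrophages across surgeries. A total of reads is not known, so the limit of detection in FPKM cannot be given.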
